A study of Rattus norvegicus with 6 samples.

Results

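The response of the rat liver to a sucrose-rich diet was compared between a normal and a high protein intake. For each gene the sucrose difference was taken at each protein level, as the high sucrose array minus the low fat array on the log2 scale. The genes described are those whose 2 sucrose differences had opposite signs and were each 1.2-fold or more. Of 14506 named genes on the array, 11424 lay above a filter on low values and 83 of these met the rule. Counted as probe sets, the array's units of measurement, 284 of 20450 above the filter met it, out of 29214. They were 84 with 1 gene symbol, of which 1 was a weaker probe set of Hars1, and 200 that the platform annotation did not name. Of the unnamed, 85 carry numbers below any in the annotation, and whether these are control features of the array is not given in the sources here. The counts over probe sets may thus include controls, and the results below rest on the named genes.

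Adult male Wistar rats had 1 of 6 diets for 5 weeks, and 5 rats per diet gave liver RNA to 1 pool and 1 Affymetrix whole-transcript array. The labels call the animals mice in one field and rats in the others, and they are taken as rats. The 4 diets used here were normal protein low fat (NP), normal protein high sucrose low fat (NP-HS), high protein low fat (HP) and high protein high sucrose low fat (HP-HS), with 20 rats between them. All rats had 10 days on the normal protein diet first and their livers were taken in the fed state, 2 h after a fixed meal of 87.6 kJ. Amounts of protein, sucrose and fat in the diets are not used here. The arrays with high sucrose and high fat (NP-HS-HF, HP-HS-HF) took no part in choosing the genes. No diet had a replicate pool, so no difference below has a test or a standard error, and the number of arrays limits the precision. The array medians of the 4 diets lay between 6.22 and 6.24. Hepatocyte markers checked the tissue, with albumin (Alb) between 13.78 and 13.85 on every array. Their median deviation from the mean over 6 arrays stayed between -0.01 and 0.02 on each array.

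Sucrose supplies fructose and glucose, which the liver takes up from the portal blood and can turn into fatty acids. A high protein meal brings amino acids that the liver breaks down for energy, urea and glucose. Both nutrients act on liver genes through hormones, chiefly insulin and glucagon, and through sensors of sugars and lipids inside the hepatocyte. Of the 83 genes that went opposite ways, 17 were on at least 1 of the 35 gene lists examined, among them lists of iron, acute phase, growth hormone, detoxification and lipid genes. These lists held 697 of the 11424 named genes and were drawn up with earlier results of these data known.

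**Figure D1:**
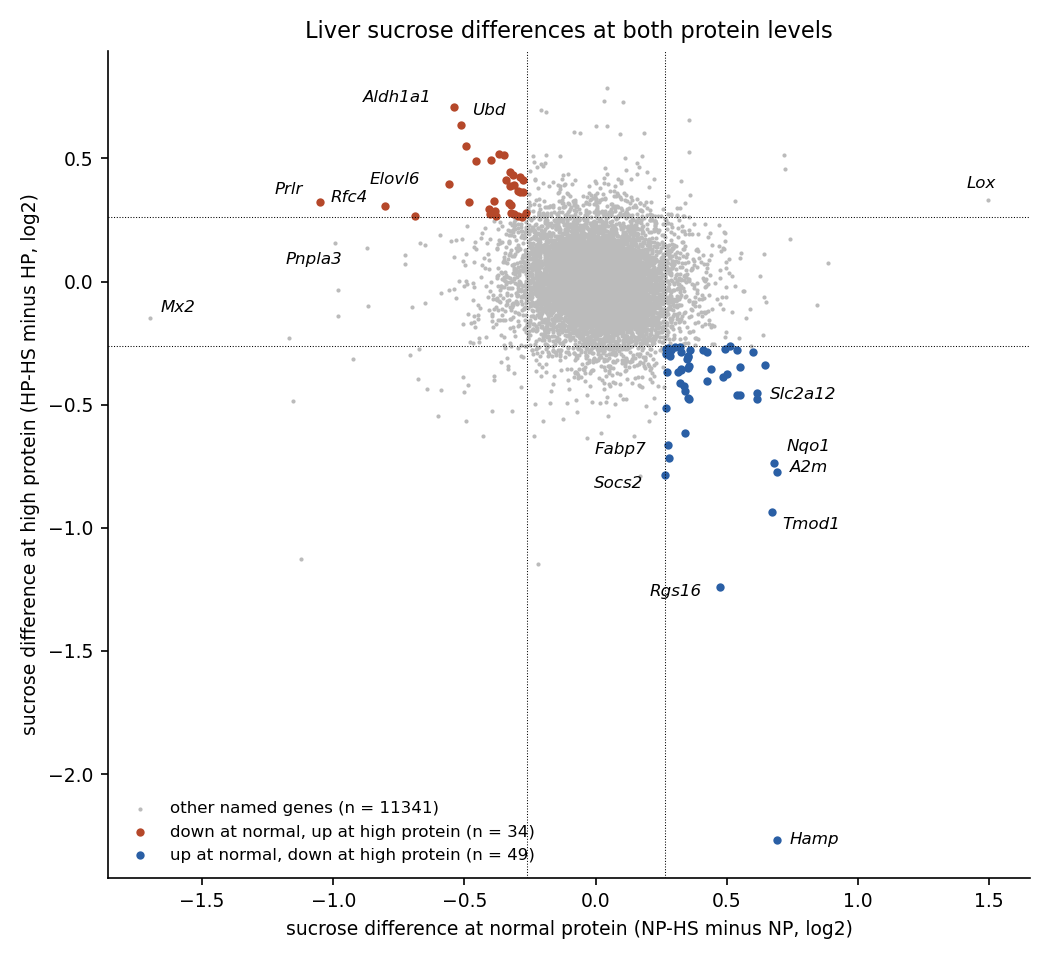
Each point is 1 named gene (n = 11424). The horizontal axis gives its sucrose difference at normal protein and the vertical axis that at high protein, both log2, and dotted lines mark 1.2-fold. Red points (34 genes) lie in the upper left corner and blue points (49 genes) in the lower right corner, where Hamp lies farthest from the rest.

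Opposite changes made up 1.39 percent of the probe sets tested, and changes past the same fold in the same direction at both levels made up 0.866 percent (177 probe sets). Lower with sucrose at normal protein and higher at high protein were 146 probe sets (0.714 percent). Higher with sucrose at normal protein and lower at high protein were 138 (0.675 percent). Among the 11424 named genes, 83 went opposite ways (0.727 percent) and 47 went the same way (0.411 percent). These shares are set by the rule and are given as a description. The differences at the 2 protein levels share no array. Across the 12097 named probe sets, which are not independent, they correlated at Pearson r = -0.12 (Spearman -0.14).

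The difference of differences, high protein minus normal protein, had an SD of 0.22 over named probe sets. Of the 83 opposite genes, 49 had the pattern of higher at normal and lower at high protein, with differences of differences from -2.96 to -0.54. The other 34 ran from 0.54 to 1.37. The larger of both sucrose differences was at normal protein for 43 genes and at high protein for 40. The array farthest from the median of the 4 was NP for 24 of the genes, NP-HS for 19, HP for 20 and HP-HS for 20.

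Hamp encodes hepcidin, the liver hormone that limits iron release into the blood by removing the exporter ferroportin. It had the largest difference of differences of any named gene (probe set 10720829). Its level was 9.03 on NP and 9.72 on NP-HS, and 9.21 on HP and 6.94 on HP-HS. It was thus 1.61-fold higher with sucrose at normal protein and 4.82-fold lower at high protein, and the difference of differences was -2.96 (7.78-fold). On the high fat arrays it stood at 9.34 (NP-HS-HF) and 9.20 (HP-HS-HF). Only the HP-HS array was low, and the other 5 lay within 9.03 to 9.72.

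Hepcidin transcription is known to respond to bone morphogenetic proteins through SMAD factors and to interleukin 6 through STAT3. The same signs, at a smaller size, were seen for Bmp2, a bone morphogenetic protein made by liver endothelial cells. Bmp2 went from 7.20 to 7.61 at normal protein and from 7.53 to 7.25 at high protein. Its lowest arrays were NP and HP-HS, whereas Hamp was low on HP-HS alone. The SMAD target Id1 was 0.01 lower with sucrose at normal protein and 0.29 lower at high protein. Bmp6, the other main ligand for hepcidin, differed by -0.21 and 0.03. Of 22 iron genes that passed the filter (24 written, 22 measured), 16 were higher with sucrose at normal protein and 8 at high protein. Of all 11424 named genes, 6036 and 5384 were. Hamp and Bmp2 went opposite ways past 1.2-fold, as did 0.727 percent of all named genes. The list's median difference of differences was -0.09, beside -0.01 for all named genes.

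The 250 bases before the start of Hamp, the only stretch searched, are shown because they hold a known pattern for each of these signals. They come from RefSeq (GRCr8, chr1:95300272-95300521, minus strand). Capitals mark GGCGCC, the core of the bone morphogenetic protein element (129 to 124 bases before the start), and TTCNNNGAA, the STAT pattern (117 to 109 bases before the start).
Hamp: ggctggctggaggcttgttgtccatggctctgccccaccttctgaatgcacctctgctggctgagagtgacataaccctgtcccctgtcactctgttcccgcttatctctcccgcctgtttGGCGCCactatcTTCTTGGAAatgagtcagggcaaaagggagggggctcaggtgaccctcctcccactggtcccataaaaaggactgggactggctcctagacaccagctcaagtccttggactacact
The next sequences are shown to compare Hamp with other opposite genes that hold either pattern. Tmod1 shares GGCGCC and the direction of Hamp (chr5:65111812-65112061, plus strand). Prlr (chr2:60909409-60909658, plus strand, 1 of 2 listed starts) and Cyp4a8 (chr5:133970227-133970476, minus strand) hold TTCNNNGAA and are the genes with it that went the other way.
Tmod1: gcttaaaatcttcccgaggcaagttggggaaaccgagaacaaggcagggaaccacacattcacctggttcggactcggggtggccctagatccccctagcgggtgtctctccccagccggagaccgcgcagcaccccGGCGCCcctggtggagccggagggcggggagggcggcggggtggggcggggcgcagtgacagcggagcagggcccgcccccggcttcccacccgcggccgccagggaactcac
Prlr: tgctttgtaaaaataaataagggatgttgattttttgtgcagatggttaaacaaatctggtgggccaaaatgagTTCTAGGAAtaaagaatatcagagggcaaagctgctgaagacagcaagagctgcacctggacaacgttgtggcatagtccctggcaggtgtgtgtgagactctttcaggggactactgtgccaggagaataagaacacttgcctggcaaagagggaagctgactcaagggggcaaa
Cyp4a8: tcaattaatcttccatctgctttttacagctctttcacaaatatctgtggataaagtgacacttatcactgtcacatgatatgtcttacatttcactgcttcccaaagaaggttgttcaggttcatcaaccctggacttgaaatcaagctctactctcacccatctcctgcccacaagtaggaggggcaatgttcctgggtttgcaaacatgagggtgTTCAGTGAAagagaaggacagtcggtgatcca

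Of the 83 opposite genes, 68 matched the promoter table by gene number. TTCNNNGAA on either strand occurred in the window of 6 of them (8.82 percent), beside 8.19 percent of 27457 genes. Of these 6, 4 had the direction of Hamp (Hamp, Lrrc8d, Osgin1 and Slc39a8), and the other two, Prlr and Cyp4a8, are those printed. GGCGCC occurred in 9 (13.2 percent, beside 9.72 percent), of which 7 were higher with sucrose at normal protein and lower at high protein, as were 38 of the 68. TGACNNNGC, the core of the antioxidant element, occurred in 6 (8.82 percent, beside 11.0 percent). The E-box CACGTG occurred in 3 (4.41 percent, beside 6.18 percent) and the cAMP element TGACGTCA in 0 (beside 1.78 percent). None of these patterns contains another, but neighbouring matches can share bases. Matches are matches of letters, and no binding was measured here.

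A2m encodes alpha-2-macroglobulin, a protease inhibitor and in rats an acute phase protein (probe set 10858408). It went from 7.29 to 7.98 with sucrose at normal protein and from 7.78 to 7.01 at high protein. The difference of differences was -1.47 (2.77-fold). On the high fat arrays A2m was 7.78 at normal and 6.91 at high protein, so HP-HS and HP-HS-HF were the lowest arrays. Lbp, the lipopolysaccharide-binding protein, differed by 0.44 and -0.18. Of 26 acute phase genes, 17 were higher with sucrose at normal protein and 12 at high protein. Of all 11424 named genes, 6036 and 5384 were. The list's median difference of differences was -0.05. Haptoglobin (Hp), C-reactive protein (Crp) and the interleukin 6 target Socs3 each differed by under 0.05 at both levels. A difference of differences of 1.5-fold or more was found for 2 of the 26, A2m and Lbp, both downward, beside 0.858 percent of all named genes downward and 0.744 percent upward.

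**Figure D2:**
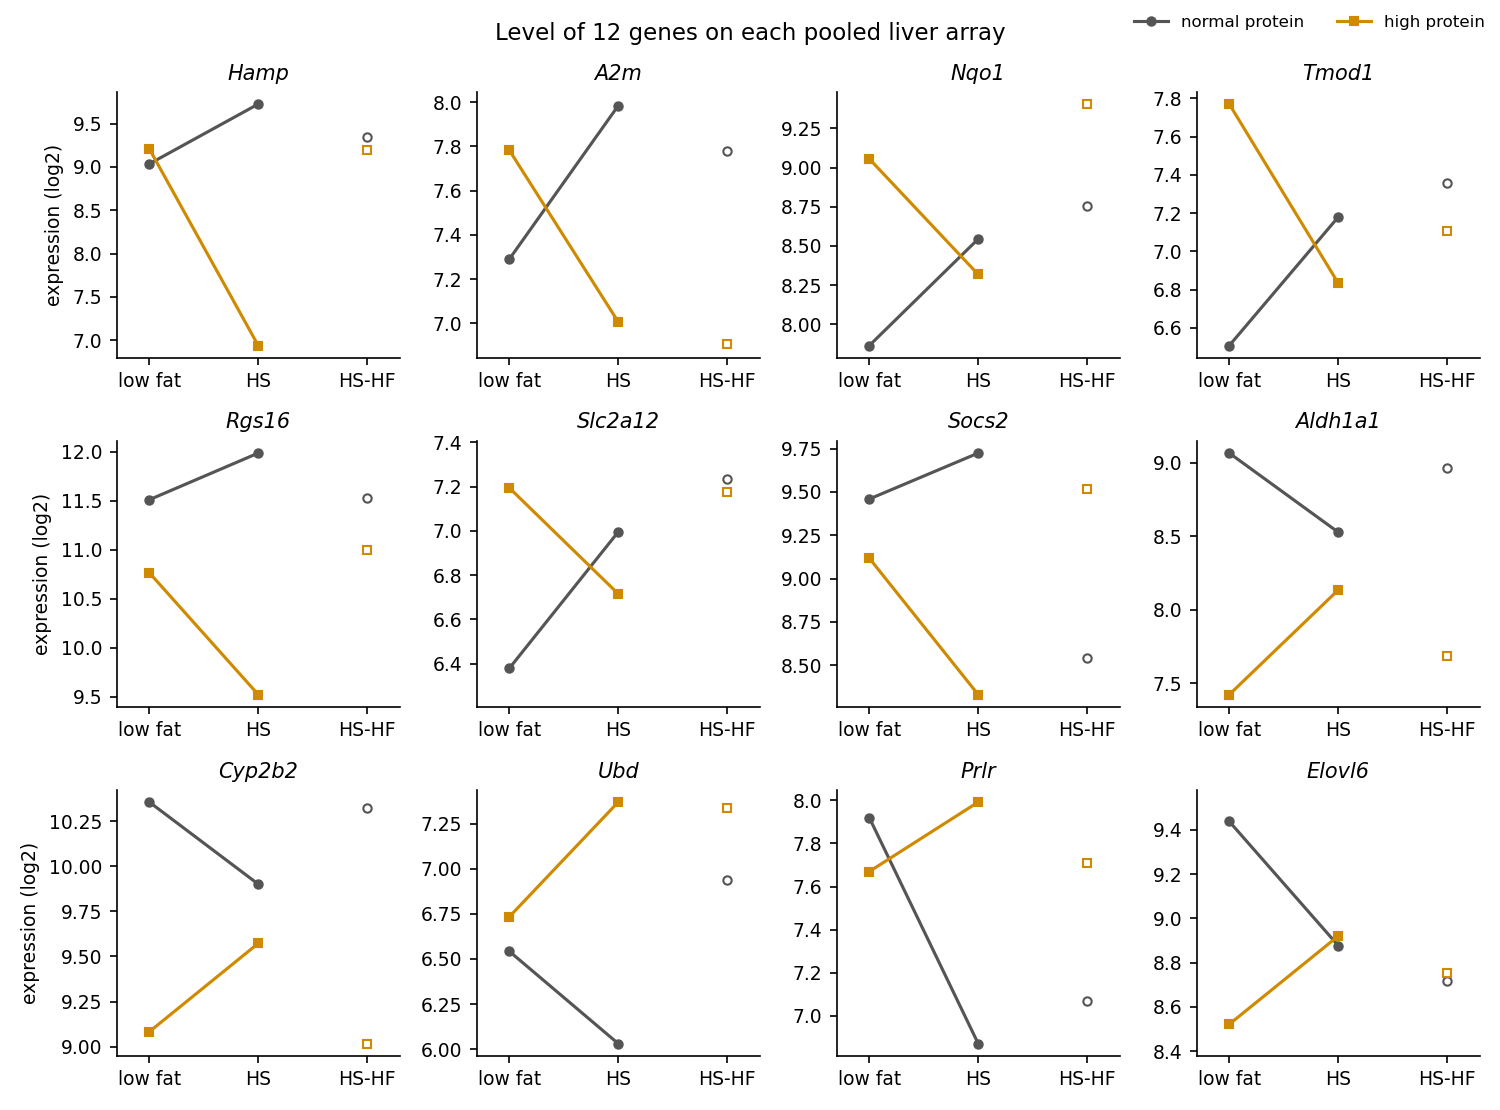
Each panel gives 1 gene's log2 level on each of 6 pooled arrays, with a vertical scale of its own. Filled points joined by a line are low fat and high sucrose (HS), circles for normal and squares for high protein, and open points mark the HS-HF diets. The lines run in opposite directions in every panel. They cross for Hamp, A2m, Nqo1, Tmod1, Slc2a12, Prlr and Elovl6 and draw apart for Rgs16, Socs2 and Ubd.

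Socs2, a feedback inhibitor that growth hormone induces through STAT5, went from 9.46 to 9.72 at normal protein and from 9.12 to 8.33 at high protein. Cish, of the same family, did not go opposite ways, with differences of -0.22 and -1.15. Its level was 7.59 on HP-HS and between 8.49 and 8.73 on the other 3 low fat arrays. On the high fat arrays Socs2 was 8.54 at normal and 9.52 at high protein, and Cish 7.34 and 8.64, which is the reverse order of the high sucrose arrays. Both genes were therefore low on HP-HS and on NP-HS-HF.

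Prlr, the prolactin receptor, went from 7.92 to 6.87 at normal protein and from 7.67 to 7.99 at high protein, with a difference of differences of 1.37 (2.59-fold). It was 7.07 on NP-HS-HF and 7.71 on HP-HS-HF, so both normal protein arrays with high sucrose were low. Cyp2c12, a cytochrome P450 that is known as female-predominant in rats, went from 8.69 to 9.33 and from 9.24 to 8.90 in these male livers. Its probe set may also detect related Cyp2c genes. The male-predominant Cyp2c11 differed by -0.02 at both levels. Among 22 genes of the growth hormone axis and sex-dimorphic set, Socs2, Cyp2c12 and Prlr went opposite ways, beside 0.727 percent of all named genes. The list's median difference of differences was -0.13. A difference of differences of 1.5-fold or more was found for 3 of the 22 downward and 2 upward. For all named genes these shares were 0.858 percent and 0.744 percent.

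Among 31 genes of xenobiotic metabolism and NRF2 targets, 5 went opposite ways, in both directions, beside 0.727 percent of all named genes. Nqo1, a quinone reductase that NRF2 induces, went from 7.86 to 8.54 at normal protein and from 9.06 to 8.32 at high protein (probe set 10810867, difference of differences -1.42). On the high fat arrays Nqo1 was 8.75 and 9.41. The aryl hydrocarbon receptor target Cyp1a1 went from 5.63 to 5.90 and from 5.95 to 5.58, near the lower end of the levels kept. Cyp1a2 of the same receptor differed by 0.26 and -0.22, just short of the rule. The drug exporter Abcb1b differed by 0.42 and -0.29. Other NRF2 targets varied in size. Osgin1, an oxidative stress gene that was not on the list and is named after its values were seen, went opposite ways in the direction of Nqo1, from 7.80 to 8.34 and from 7.76 to 7.48. Heme oxygenase (Hmox1) differed by 0.31 and -0.03 and Gclm by 0.14 and -0.11. Gclc differed by 0.01 and -0.12, Srxn1 by 0.08 and -0.04 and Txnrd1 by 0.08 and 0.05.

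In the opposite direction, Aldh1a1, a retinaldehyde dehydrogenase, went from 9.07 to 8.53 at normal protein and from 7.42 to 8.14 at high protein (probe set 10714323, difference of differences 1.25). Its levels with high sucrose and high fat were 8.96 and 7.69. The phenobarbital-inducible Cyp2b2 went from 10.36 to 9.90 and from 9.08 to 9.57, and was 10.32 and 9.02 with high fat. For both genes the normal protein array was the higher one in all 3 backgrounds, and the gap narrowed on high sucrose. Cyp2b1, a close copy of Cyp2b2, differed by 0.07 and 0.11, and probe sets of such near-identical genes can share signal. The list as a whole had a median difference of differences of 0.02.

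Elovl6, the elongase that turns palmitate into stearate, went from 9.44 to 8.88 at normal protein and from 8.52 to 8.92 at high protein. The difference of differences was 0.96 (1.94-fold), and Elovl6 was 8.72 and 8.75 with high fat, so NP was its high array and HP its low one. Scd, the stearoyl-CoA desaturase, went from 12.79 to 12.58 and from 11.74 to 12.22. Fasn, fatty acid synthase, differed by -0.22 and 0.13. Pnpla3, a lipase-like protein of lipid droplets, went from 7.13 to 6.14 at normal protein and from 6.18 to 6.33 at high protein. These 4 genes were lower with sucrose at normal protein and higher at high protein, and Elovl6 alone passed 1.2-fold at both.

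On the list of fatty acid and triglyceride synthesis, with 23 genes, 9 were higher with sucrose at normal protein and 14 at high protein. Of all 11424 named genes, 6036 and 5384 were. The list's median difference of differences was 0.06. Under quantile normalization of the 4 arrays this median was 0.11, past the 0.1 used below to describe lists. The difference of differences was 1.5-fold or more upward for 3 genes (Elovl6, Pnpla3 and Scd) and downward for 0, beside 0.744 and 0.858 percent of all named genes. By any size it was above 0 for 14 of the 23 and below 0 for 9. Fads1 went the other way from Elovl6, with differences of 0.38 and -0.10 (difference of differences -0.48). Acaca, Acly and Dgat2 each differed by at most 0.06 at both levels. Cyp4a8, a cytochrome P450 of the fatty acid hydroxylase family, went from 7.83 to 7.14 and from 7.28 to 7.55. Of the 27 genes of fatty acid oxidation and PPAR alpha targets that passed, it was the 1 opposite gene. Among all named genes, 0.727 percent were opposite. Cyp4a copies are similar in sequence, so the Cyp4a8 probe set may read more than 1 of them.

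Rgs16, which ends signalling by G proteins and is known to respond to sugar in hepatocytes, went from 11.51 to 11.98 at normal protein and from 10.76 to 9.52 at high protein. The difference of differences was -1.72 (3.29-fold), next to that of Hamp. With high fat Rgs16 was 11.53 and 10.99, so high protein arrays were lower in all 3 backgrounds and HP-HS was the lowest. Pklr, Txnip and Khk, other genes that sugar induces, did not meet the rule. They were among 22 genes of glycolysis and fructose use, of which 0 went opposite ways, beside 0.727 percent of all named genes. A count of 0 in so short a list is near that share. The list's median differences were -0.03 at normal and -0.02 at high protein. Slc2a12, the glucose transporter GLUT12, went from 6.38 to 7.00 and from 7.19 to 6.72. Of 19 clock and clock output genes, among which Rgs16 was listed, it was the 1 opposite gene, and Bmal1 differed by 0.42 and 0.01. Bmal2, a paralog of Bmal1 that was not on the list and is named after its values were seen, also went opposite ways, from 6.41 to 6.90 and from 6.62 to 6.35.

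**Figure D3:**
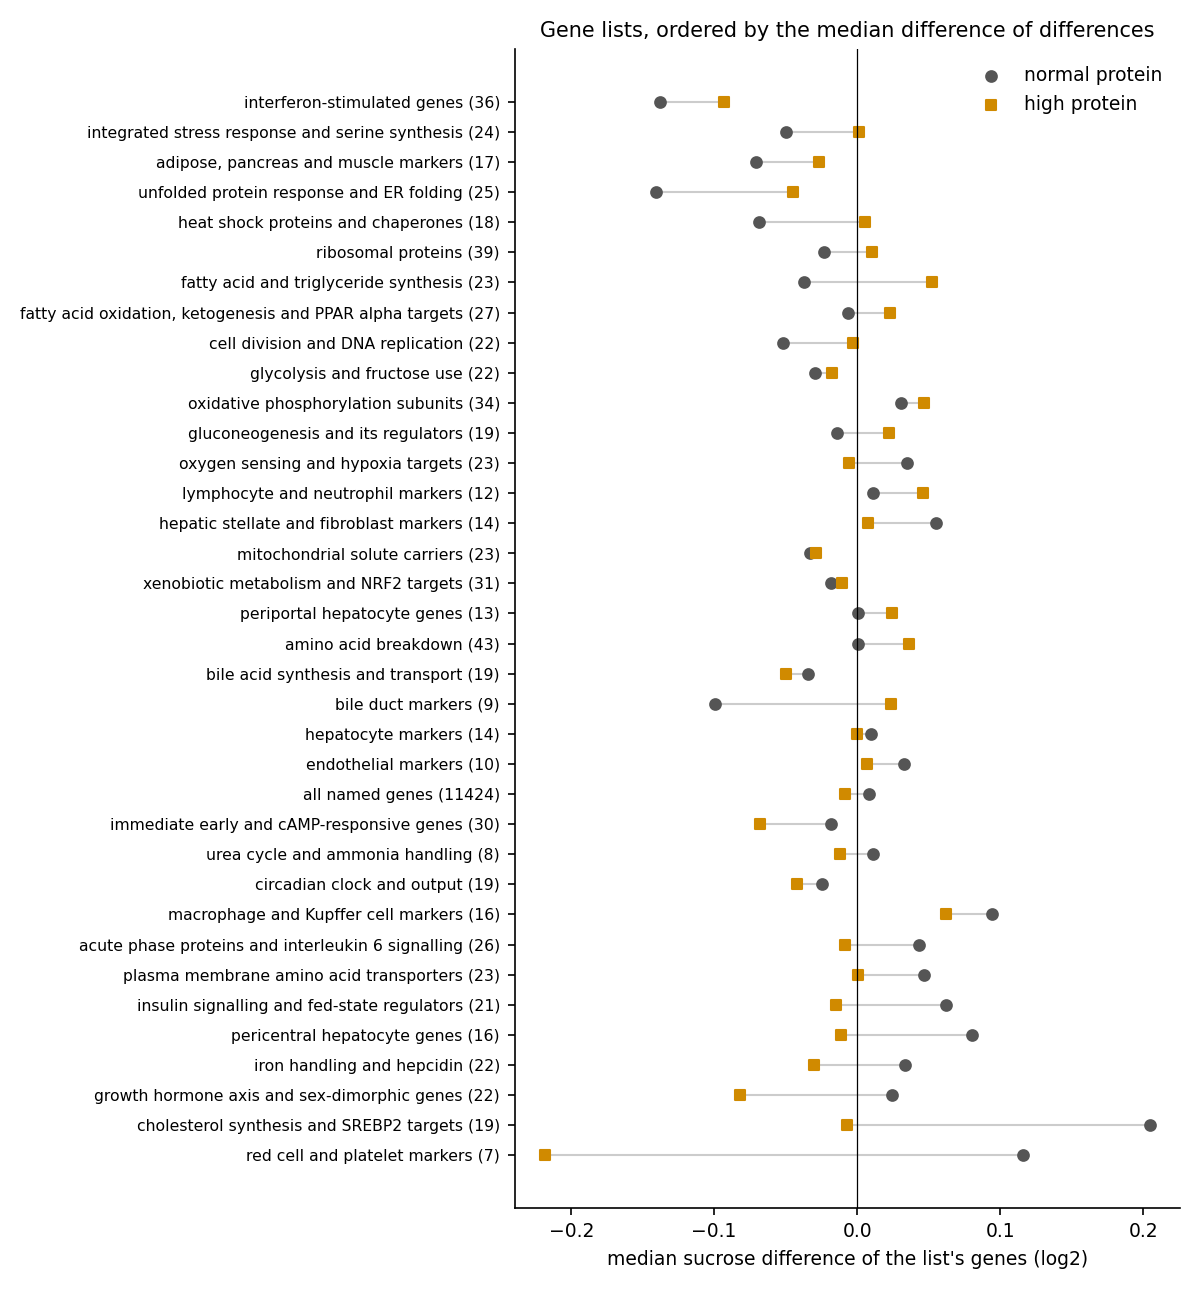
Each row is 1 gene list, with the number of genes that passed the filter, ordered by the median difference of differences. Circles give the median sucrose difference at normal protein and squares that at high protein (log2). The red cell and platelet list has the widest gap, from 0.12 at normal protein to -0.22 at high protein.

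Among 35 lists (25 of pathways, 10 of cell types or liver zones), 31 had a median difference of differences within 0.1 of 0, and 25 held 0 opposite genes. With 0.727 percent of all named genes opposite, 0 in such short lists is near the share of all genes. The exceptions in the median were the interferon-stimulated genes (0.17), the growth hormone list (-0.13), cholesterol synthesis (-0.16) and the red cell and platelet markers (-0.36). For all named genes the median was -0.01, and 46.9 percent lay above 0.

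Red cell and platelet markers were the list in which every gene changed sign the same way. All 7 that were measured, of 12 written, were higher with sucrose at normal protein, and 0 of 7 at high protein. Of all 11424 named genes, 6036 and 5384 were. Beta globin (Hbb) went from 10.89 to 11.18 and from 11.20 to 10.92, which put it among the opposite genes. Alas2, the red cell enzyme of heme synthesis, went from 7.72 to 7.99 and from 8.01 to 7.81. The anion exchanger Slc4a1 differed by 0.08 and -0.27, and the platelet genes Ppbp and Pf4 by at most 0.12. The globin probe sets Hbb and Hbb-b1 belong to near-identical genes and may share signal. The summed level of the list, on the linear scale, was 3267 on NP, 3876 on NP-HS, 4056 on HP and 3327 on HP-HS. It was 3649 on NP-HS-HF and 3904 on HP-HS-HF.

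Car1, a carbonic anhydrase abundant in red cells, was not on the list and is named after its values were seen. It differed by 0.34 and -0.62 and was lowest on HP-HS, at 5.39. Tmod1, tropomodulin, which caps actin filaments and is abundant in red cells, went from 6.51 to 7.18 and from 7.77 to 6.83 (difference of differences -1.61, 3.05-fold). Car1 and Tmod1 are opposite genes outside the red cell and platelet list, so the rule fixed their opposite signs. Hamp, A2m and Nqo1, also opposite genes, have the direction of that list, and the part of blood content in their differences was not tested. In pooled tissue, fewer cells of a type and less RNA per cell cannot be told apart. The medians of the macrophage, stellate, endothelial, bile duct and lymphocyte lists lay between -0.05 and 0.03, and each held 0 opposite genes. The share of opposite genes among all named genes was 0.727 percent.

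**Figure D4:**
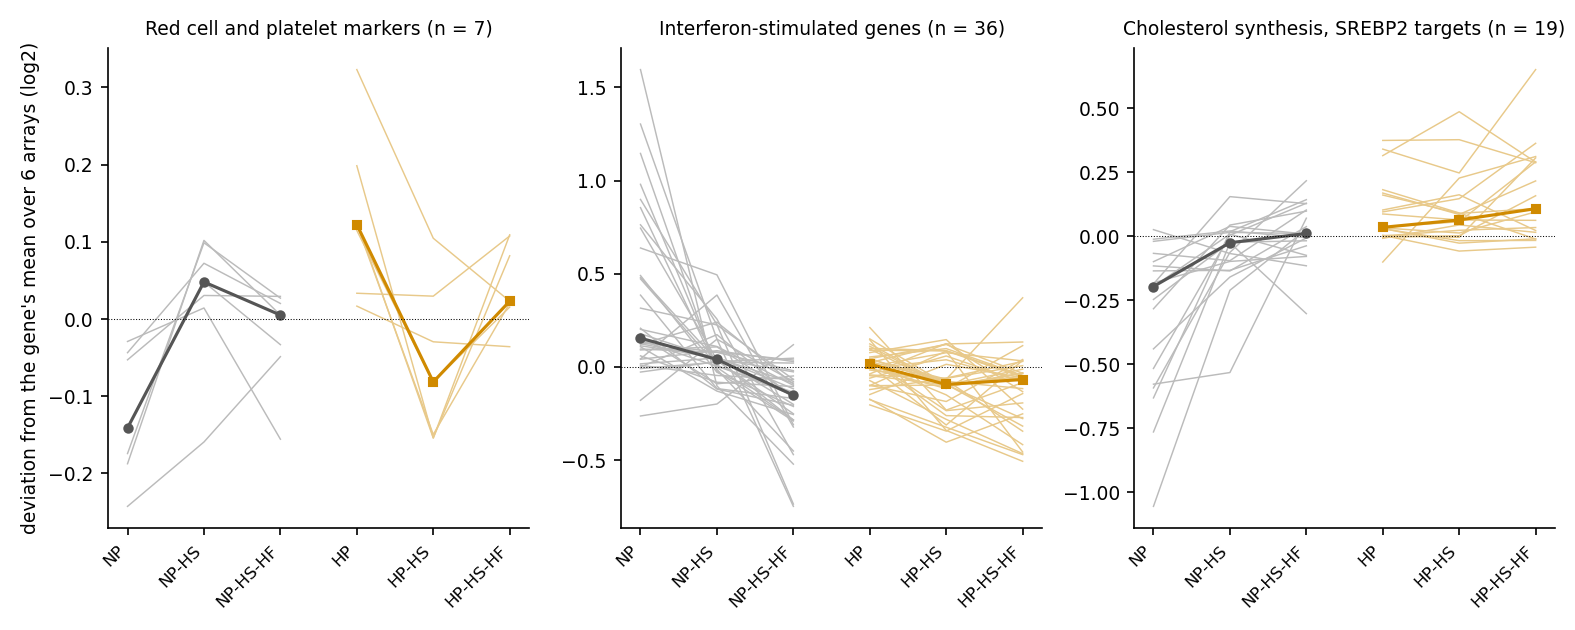
Each thin line is 1 gene of the named list and gives its deviation from its own mean over 6 arrays (log2), with the list median as points, circles for normal and squares for high protein. Red cell markers are lowest on NP and next lowest on HP-HS, interferon-stimulated genes are highest on NP, and cholesterol genes are lowest on NP.

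Interferon-stimulated genes and cholesterol genes had unequal sucrose differences, and all but Rsad2 fell short of 1.2-fold in opposite ways. Higher at normal and lower at high protein, by any size, were 7 of 36 interferon-stimulated and 9 of 19 cholesterol genes. The reverse held for 9 and 2. The share of all named genes with such signs was not counted, so these counts are not read as traits of the lists. Mx2, an antiviral GTPase, was 9.03 on NP and between 6.91 and 7.33 on the other 5 arrays. Its sucrose differences were -1.70 and -0.15, so the difference of differences of 1.55, the largest upward, came from the NP array. Usp18, Isg15, Irf7 and Ifit1 differed by -0.87 to -1.17 at normal protein and by -0.10 to -0.49 at high protein. Of 36 interferon-stimulated genes, 26 were lower with sucrose at normal protein and 24 at high protein. Of all 11424 named genes, 5385 and 6035 were. Rsad2, viperin, was the 1 opposite gene of the 36, beside 0.727 percent of all named genes. It was higher with sucrose at normal protein and lower at high protein, from 5.79 to 6.13 and from 5.96 to 5.52. These values are near the lower end of the levels kept.

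Of 19 cholesterol synthesis genes, 16 were higher with sucrose at normal protein (median 0.20) and 9 at high protein (median -0.01). Of all 11424 named genes, 6036 and 5384 were. Sqle, squalene epoxidase, was 5.81 on NP, 6.66 on NP-HS, 7.21 on HP and 7.11 on HP-HS. Msmo1, a sterol oxidase, was 8.63, 9.28, 9.43 and 9.35 in the same order. NP was the low array for both, and 0 of the 19 went opposite ways past 1.2-fold, beside 0.727 percent of all named genes. Lox, which cross-links collagen, showed the same shape, at 5.41 on NP against 6.90, 6.67 and 7.00.

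Beyond these lists, the strongest genes higher with sucrose at normal protein and lower at high protein were of mixed function. Rab9a, a small GTPase of endosomes, went from 9.69 to 10.31 and from 10.44 to 9.99. Cfap126, a protein of cilia, went from 9.76 to 10.31 and from 10.35 to 9.89. Mst1r, the receptor of macrophage-stimulating protein, went from 7.25 to 7.68 and from 6.96 to 6.55. Prim1, the DNA primase subunit, differed by 0.48 and -0.39, and Ccnf, cyclin F, by 0.36 and -0.48. Marveld1, Prrg4 and Aph1b differed by 0.50, 0.54 and 0.35 at normal protein and by -0.38, -0.46 and -0.47 at high protein. Zfp534l1 had a second probe set with weaker differences, 0.15 and -0.03 against 0.44 and -0.36.

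Among the strongest of the other direction, Ubd, a ubiquitin-like protein that cytokines induce, went from 6.54 to 6.03 and from 6.73 to 7.37. It was 6.94 and 7.33 with high fat. Rfc4, of the DNA clamp loader, went from 6.11 to 5.31 and from 5.31 to 5.62. Sem1, a small proteasome subunit, differed by -0.35 and 0.51, and Ruvbl1, an ATPase of chromatin complexes, by -0.33 and 0.44. Yars2, the mitochondrial tyrosyl-tRNA synthetase, differed by -0.34 and 0.41. Ces2e, a carboxylesterase, and Prkag3, a subunit of AMP-activated kinase, both had a difference of differences of 0.72. The low-level Mrgprx3 and Tpd52l3 lay between 5.10 and 5.92 on the 4 arrays.

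The rule also makes the protein differences on low fat and on high sucrose unequal. It does not fix which protein level is higher on either. Of the 49 genes higher with sucrose at normal protein, high protein was above normal protein on low fat for 42 and below it on high sucrose for 48. Of the 34 genes of the other direction, high protein was below on low fat for 31 and above on high sucrose for 31. The order of the protein levels was reversed for 69 of the 83. These counts use the arrays that chose the genes and are descriptions of the pattern.

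The high sucrose high fat arrays give a protein difference that the choice of genes did not use. It was positive for 18 of the 34 genes that were higher with sucrose at high protein (median 0.01) and for 22 of the 49 of the other direction (median -0.10). For all named genes the share was 48.4 percent and the median -0.01. A protein difference of 1.2-fold or more there was found for 19 of the 83 genes upward and 18 downward (22.9 and 21.7 percent), beside 6.29 and 6.56 percent of all named genes. A larger share than of all named genes thus passed 1.2-fold there, about as many upward as downward. Genes chosen for differences between single arrays may also vary more between other arrays, which was not tested. These shares are therefore given as a description. Prlr (0.64), A2m (-0.87), Rgs16 (-0.54) and Ubd (0.39) kept the order they had on high sucrose. Nqo1 (0.65) and Socs2 (0.97) had the reverse order, against -0.23 and -1.39 on high sucrose. Aldh1a1 was -1.28 there and -0.39 on high sucrose, and Cyp2b2 -1.31 and -0.33.

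**Figure D5:**
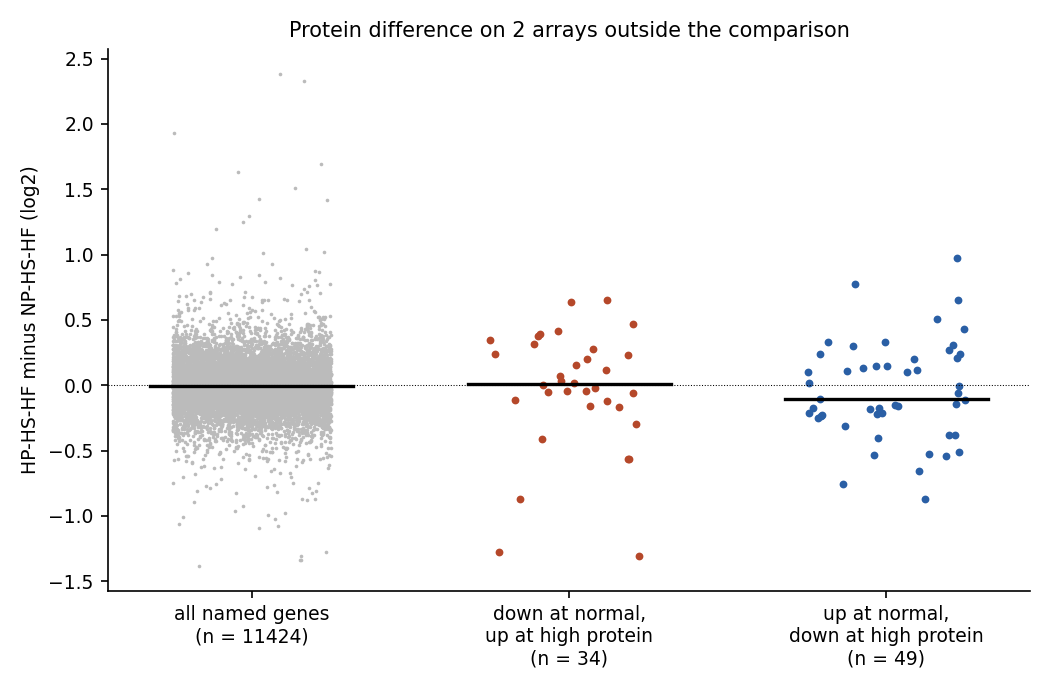
Points give the protein difference on the high sucrose high fat arrays (log2, HP-HS-HF minus NP-HS-HF) for all named genes and for each opposite class, and bars give medians. Both classes spread to either side of 0, with medians of 0.01 and -0.10.

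A difference of differences of 1.5-fold or more was reached by 183 named genes, 85 upward and 98 downward. Of these, 75 went opposite ways past 1.2-fold at both levels (41.0 percent), 90 had opposite signs with 1 or both differences below 1.2-fold, and 18 had the same sign. Genes that moved with sucrose at normal protein alone, under 1.1-fold at high protein, included Zfp61 (0.88) and Sqle (0.84) upward and Klhl25 (-0.98), an adaptor of ubiquitin ligases, and the mitochondrial carrier Slc25a25 (-0.87) downward. At high protein alone, the carbonic anhydrase Car12 (0.78), Rtn4ip1 (0.73) and Iqub (0.73) were among those upward, and Gpm6a (-0.64), Trim52 (-0.62) and Mcm10 (-0.56) downward. Car12 was 5.36 on NP and 5.40 on NP-HS, near the filter on low values (5.14). Trim52 was 4.84 on HP-HS, below that value. Klhl25 was 8.23 on NP-HS and between 9.05 and 9.30 on the other 5 arrays.

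The limit of 1.2-fold is 0.263 on the log2 scale. Just inside it lay Clec2dl1 (0.512 and -0.263), Csad (0.321 and -0.264) and Trim80 (-0.264 and 0.280). Just outside it lay Chrdl1 (0.507 and -0.262), Oca2 (0.261 and -0.428) and Car7 (-0.311 and 0.261). Csad, an enzyme of taurine synthesis, was the 1 opposite gene among 43 of amino acid breakdown. The list's medians were 0.00 at normal and 0.04 at high protein. Gluconeogenesis (19 genes), the urea cycle (8) and serine synthesis with the integrated stress response (24) held 0 opposite genes. Of all named genes 0.727 percent were opposite, so 0 in lists of this size is near that share.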

How the data were processed

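Liver RNA of 5 rats per diet was pooled (1500 ng per rat, integrity number of at least 7.0) and hybridised to 1 array per diet, per the labels' protocols. The deposited values are on the log2 scale, summarised by the authors with RMA, per the submitters' processing notes. Which version and settings they used is not given in the sources here. From them the sucrose differences and their difference were computed in Python 3.11.15 with pandas 2.3.3. A probe set was kept if its mean of 4 arrays exceeded the 30th percentile of such means, log2 5.14. Of 29214 probe sets, 15310 had 1 gene symbol in the platform annotation, 323 had several and 13581 were not listed. Of the named ones, 15279 matched RefSeq by Entrez number and 0 symbols changed. A symbol's probe set with the highest mean stood for the gene, which gave 11424 genes. RMA compresses differences of low signals, so folds of dim genes may be too small.

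With 1 pool per diet, there was no test and no p-value. The code that selects genes was tested on simulated data with planted differences, which checks the code and says nothing of the differences measured. Alternatives used limma 3.58.1 in R 4.3.3. Genes were named by rule: in each opposite class the 15 with the largest smaller difference, the 8 largest differences of differences each way, opposite genes and up to 4 others of each list, the 5 largest each way at 1 protein level alone (under 1.1-fold at the other) and 3 on each side of the limit. A part of these is given, and other opposite or listed genes were chosen after their values were seen. The 35 lists held 838 symbols, of which 729 were measured and 697 passed the filter. The members and lists were chosen with earlier results of these data known. Promoters and their coordinates are from RefSeq on GRCr8, and the probe sets have no coordinates here.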

Additional observations from a re-analysis of the deposited data

Results flagged for a closer look

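With 1 array per diet, a difference between the protein levels could not be tested, and each value here is flagged because the sucrose differences had opposite signs and were each 1.5-fold or more. Among named genes these were Hamp, with a difference of differences of -2.96, Tmod1 (-1.61), A2m (-1.47) and Nqo1 (-1.42). The red cell and platelet markers are flagged because all 7 genes changed sign in the same way, with a median difference of differences of -0.355. Of all 11424 named genes, 6036 were higher with sucrose at normal protein and 5384 at high protein. Hamp was low on 1 array of 6, HP-HS. The part of blood content in the values of the 4 genes was not tested.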

How the results depend on the processing

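No paired analysis was possible because each diet has 1 array and the labels give no replicate numbers. For the same reason no array could be left out. Re-centring, quantile and cyclic loess normalization gave 290, 283 and 286 opposite probe sets in place of 284, of which 273, 268 and 270 were the same. Single genes were checked only among the 181 that the rule above picked, of which 42 were opposite genes. None of the 181 had a difference of differences that changed sign. The normalizations moved that of the 42 opposite genes by at most 0.04. The counts depended on the level filter and on the fold. Without a filter 493 probe sets went opposite ways (258 lower, 235 higher at normal protein) and 1053 had a difference of differences of 1.5-fold or more, in place of 627. With the filter at the 50th percentile these were 183, 95, 88 and 380. At 1.3-fold there were 76 (46 and 30), at 1.5-fold 19 (13 and 6), and 95 differed by 2-fold in the difference of differences. After the data were seen, named probe sets alone were counted, which gave 84 (35 and 49) and 192. Without the probe sets numbered below the lowest in the annotation, there were 199 (97 and 102) and 414. Intensities set by RMA carry no measure of background here. Dim genes such as Mrgprx3, Tpd52l3, Clec2dl1, Rfc4, Prkag3, Cyp1a1, Rsad2 and Trim52 are therefore the least certain.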

Other observations

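Among the opposite genes not described above, which except for Ethe1 were chosen here after their values were seen, a pair of mitochondrial enzymes of hydrogen sulfide oxidation went the same way. Ethe1, the persulfide dioxygenase, went from 9.51 to 9.02 at normal protein and from 9.40 to 9.73 at high protein. Sqor, the sulfide quinone oxidoreductase, went from 10.25 to 9.87 and from 9.76 to 10.05, and its second probe set differed by -0.12 and 0.21. On the high fat arrays Ethe1 was 9.46 and 9.34 and Sqor 10.52 and 10.23, so the protein difference was negative for both there. Immune genes were found in both directions. Jchain, the joining chain of antibodies, differed by 0.32 and -0.41 and Cd180, a receptor of B cells and macrophages, by 0.36 and -0.34, whereas RT1-Db1, of the class II histocompatibility complex, differed by -0.28 and 0.41.

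Of the 284 opposite probe sets, 200 were unnamed, a share of 70.4 percent, where 8186 of the 20450 probe sets tested were unnamed. Unnamed probe sets numbered below the lowest number in the annotation were 1045 of those tested and 85 of the opposite ones. Their difference of differences had an SD of 0.51, beside 0.22 for named probe sets and 0.25 for the other unnamed ones. Of the 19 probe sets past 1.5-fold at both levels, 12 were of this kind and 4 were named. Whether they are control features was not tested.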
